A study of Homo sapiens with 4 samples.

Results

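MicroRNAs miR-103a and miR-107 were examined in small RNA libraries of PC-3, a cell line established from a human prostate cancer, given apelin or left untreated. Apelin is a peptide ligand of the G protein-coupled receptor APJ. The apelin group had 10 µg/mL of the peptide in the medium for 24 h, and the control group had no treatment; each group had 2 libraries. All libraries came from PC-3 cells grown in DMEM with fetal bovine serum, and the labels name no separate cultures. The p-values below therefore reflect the spread of these 4 libraries alone, and that spread may be technical. Members were the rows of the deposited table whose name begins with hsa-miR-103a, hsa-miR-103b or hsa-miR-107. There were 3 such rows among the 1096 entries, of which 516 carry a catalogue name and 580 are predicted. They were miR-103a-1-3p and miR-103a-2-3p, named for the hairpins of a single mature miRNA, miR-103a-3p, and miR-107. miR-103b and the 5p arms were not analysed here.

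MicroRNAs guide Argonaute proteins to messenger RNAs that pair with the seed near their 5′ end. miR-103 and miR-107 share their seed and are known to repress DICER1, the enzyme that cuts miRNA hairpins, and caveolin-1, a partner of the insulin receptor. miR-107 is also known to repress CDK6 and ARNT (HIF-1β). Their hairpins lie inside genes for pantothenate kinases (PANK), which catalyse the rate-limiting step of coenzyme A synthesis.

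The mature sequences are shown because the separation of these rows rests on a single base. They are given 5′ to 3′ from RefSeq (GRCh38.p14), with the seed (bases 2 to 8) in capitals.
miR-103a-3p: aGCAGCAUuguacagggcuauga
miR-107: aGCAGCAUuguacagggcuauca
Both were 23 nt long and identical at 22 positions. The difference was G22C, counted from 1 at the 5′ end with the base of miR-103a-3p first, so the first 21 bases were the same. The deposited table lists a length of 23 nt for both miR-103a-3p rows and of 21 nt for miR-107, which is 2 nt short of the RefSeq sequence. A read of 21 nt or less that starts at base 1 would be the same for both miRNAs, and no source used here gives the authors' rule for such reads. Listed lengths under that of RefSeq were found for 34 of the 195 tested entries with a RefSeq sequence, and 7 of them were short by 2 nt or more. Among the 186 distinct mature sequences of tested entries, 13 pairs of equal length differed at 1 base, and 1 of the 13 pairs, miR-103a-3p with miR-107, differed within its last 2 bases.

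The 3 hairpins show how far the loci can be told apart outside the mature miRNA, whose bases are in capitals (RefSeq, GRCh38.p14).
MIR103A1, chr5:168560896-168560973, minus strand: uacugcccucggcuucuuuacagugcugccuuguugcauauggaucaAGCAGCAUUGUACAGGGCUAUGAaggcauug
MIR103A2, chr20:3917494-3917571, plus strand: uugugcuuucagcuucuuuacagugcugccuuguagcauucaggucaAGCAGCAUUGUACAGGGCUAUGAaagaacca
MIR107, chr10:89592747-89592827, minus strand: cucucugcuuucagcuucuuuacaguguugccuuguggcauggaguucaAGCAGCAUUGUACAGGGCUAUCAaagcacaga
The mature stretch ran from base 48 to base 70 in both miR-103a hairpins, which are 78 nt long, and from base 50 to base 72 in the miR-107 hairpin of 81 nt. MIR103A1 and MIR103A2 were identical for the 3 bases before the mature miRNA and the 1 base after it. A read within that stretch fits both miR-103a hairpins.

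Each hairpin lay on the strand of its host gene and inside intron 5 of the host's 7-exon principal transcript (GENCODE release 29, GRCh38). MIR103A1 lay in PANK3 on chromosome 5 (168548495 to 168579600), 18.6 kb from the transcript start, in an intron of 2235 bases. MIR103A2 lay in PANK2 on chromosome 20 (3888839 to 3929882), 28.4 kb from the transcript start, in an intron of 1620 bases. MIR107 lay in PANK1 on chromosome 10 (89579497 to 89645572), 51.1 kb from the transcript start, in an intron of 4419 bases. No hairpin overlapped an exon of the 1 PANK3, 4 PANK2 and 3 PANK1 coding transcripts annotated there. Host messenger RNAs were not measured in these libraries.

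**Figure D1:**
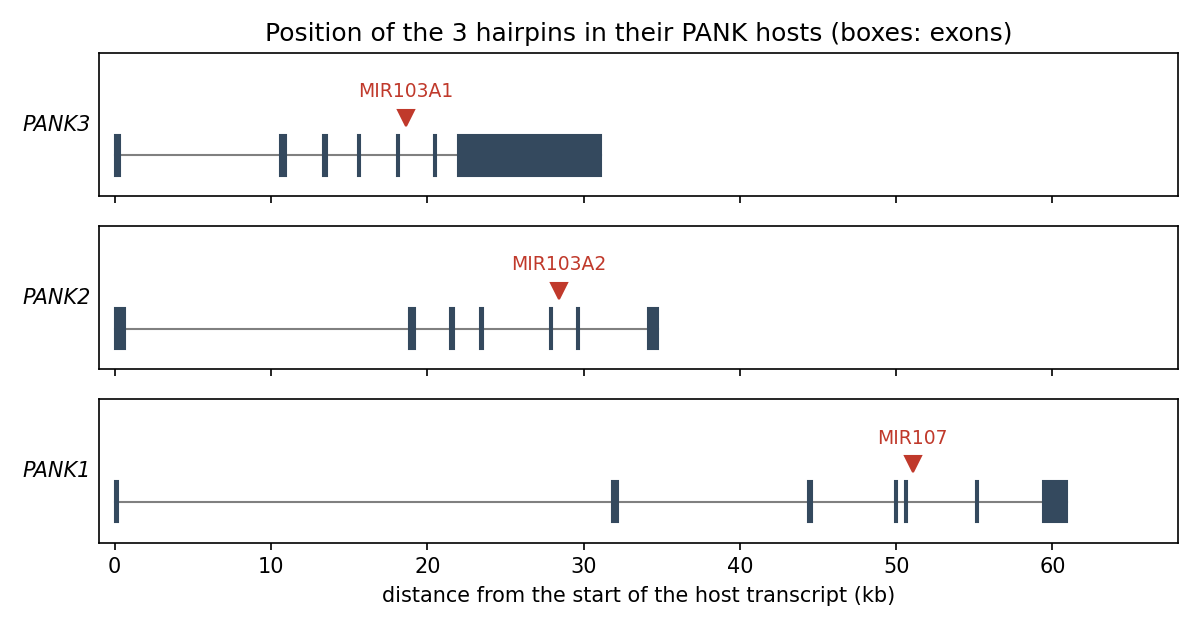
Position of the 3 hairpins in their hosts, as the distance from the transcript start in kb, with boxes for exons and triangles for hairpins. All 3 hairpins lie in intron 5, at 18.6 kb in PANK3, 28.4 kb in PANK2 and 51.1 kb in PANK1.

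The libraries held 5322429 to 6014838 counts, and a count of 0 allows up to 3 counts, or 0.499 to 0.564 TPM (TPM here is each count scaled to a library total of 1000000, with no division by length). Apelin 2 stood apart from the other libraries: over the 207 tested catalogue entries above 0 in every library, its root-mean-square log2 difference from them was 0.41 to 0.52, against 0.30 to 0.34 among the other 3. Values without apelin 2 are given beside most fold changes, sums and ratios below, but not beside every result. Of 6 epithelial marker miRNAs, 5 had rows, all over 10 TPM on average, and miR-141-3p had none. Their sum ran from 7866 to 8246 TPM with apelin and from 8041 to 8386 TPM in controls. Most of it was miR-200b-3p, with a mean of 6635 TPM. The means of the others were 989 TPM for miR-200a-3p, 396 for miR-429, 86.2 for miR-205-5p and 28.8 for miR-200c-3p. Mesenchymal markers (3 of 4 with rows) summed to 5.79 to 6.01 TPM with apelin and 4.42 to 6.49 TPM in controls, and miR-143-3p was at 0 in apelin 2 and control 1. Blood markers (3 of 7 with rows) summed to 29.1 to 35.9 TPM with apelin and 37.8 to 40.4 TPM in controls. Nearly all of this sum was miR-486-5p, at 33.8 and 28.2 TPM with apelin, and at 35.7 and 37.1 TPM in controls. The means of miR-150-5p and miR-223-3p were 0.73 and 1.35 TPM, and miR-223-3p was at 0 in apelin 2 and control 2. The endothelial, liver and muscle lists had no row with a mean of 10 TPM, and the highest sum of any of them was 13.7 TPM with apelin and 7.24 TPM in controls, both of the endothelial miR-126-3p. The neuronal list named miR-124-3p, miR-9-5p and miR-128-3p, and miR-124-3p had no row. The rows found, miR-9-5p and both miR-128 rows, summed to 2562 to 2796 TPM with apelin and 3093 to 3148 TPM in controls. The miR-128 rows are named for the hairpins of a single mature miRNA, so this sum can count reads again. miR-128-1-3p alone stood at 1212 and 1277 TPM with apelin, and at 1522 and 1486 TPM in controls. For miR-9-5p the values were 300 and 399 TPM with apelin, and 298 and 299 TPM in controls. The part of these differences in the results was not tested.

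miR-103a-3p was among the most abundant miRNAs of these cells, and its level did not differ detectably with apelin. miR-103a-2-3p stood at 24007 TPM in apelin 1 and 26845 TPM in apelin 2, and at 26619 TPM in control 1 and 24725 TPM in control 2. The highest and the lowest library were both apelin libraries, and the control values lay between them. The means were 25426 ± 2006 TPM with apelin and 25672 ± 1340 TPM in controls (SD, n = 2 each). The log2 fold change of apelin over control was 0.0074 (SE 0.14, 95% interval -0.43 to 0.45, adjusted p = 0.976 by edgeR's quasi-likelihood test). Without apelin 2 it was -0.18, without control 2 -0.091, without apelin 1 0.11 and without control 1 0.074, so its direction rested on single libraries. In RNA from a whole culture, fewer cells carrying a miRNA and less of it per cell cannot be told apart.

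The row for the other hairpin, miR-103a-1-3p, followed it in every library. Its levels were 23907 and 26748 TPM with apelin, and 26486 and 24630 TPM in controls. It lay below miR-103a-2-3p by 532 counts in apelin 1, 554 in apelin 2, 799 in control 1 and 535 in control 2, or 0.362% to 0.499% of the higher row. The rows were thus not the same counts, but they differed so little that they can hold mostly the same reads and are uncertain as separate measures of PANK3 and PANK2 copies. Its log2 fold change was 0.0082 (SE 0.14, adjusted p = 0.976 by edgeR), and -0.18 without apelin 2 or -0.089 without control 2.

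Other mature miRNAs listed under copy names differed more between their rows, apart from rows with the same counts. Among entries with a mean of at least 10 TPM, 6 mature miRNAs had such rows, in 10 pairs, and 2 pairs had the same counts in all libraries. miR-24-2-3p lay 0.611% to 0.724% below miR-24-1-3p, as a share of the higher row. On the same measure, miR-92a-2-3p lay 5.70% to 7.03% below miR-92a-1-3p, and miR-128-2-3p lay by up to 13.3% below miR-128-1-3p. Below, miR-103a-2-3p stands for miR-103a-3p, since adding the rows could count reads again.

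miR-107, from the PANK1 intron, was far less abundant, and it too gave no call with apelin. It had 3839 counts (721 TPM) in apelin 1 and 4490 counts (788 TPM) in apelin 2, and 3780 counts (628 TPM) in control 1 and 4326 counts (764 TPM) in control 2. Control 1 was the lowest library, and control 2 lay between the apelin libraries, so the groups overlapped. The exact 95% counting interval was 609 to 649 TPM in control 1 and 741 to 787 TPM in control 2, so the controls parted by more than counting error. These intervals cover counting error only, since the libraries were amplified by PCR and no molecular identifiers are described. The means were 754 ± 46.8 TPM with apelin and 696 ± 95.8 TPM in controls (SD, n = 2 each). The log2 fold change was 0.14 (SE 0.15, 95% interval -0.36 to 0.64, adjusted p = 0.755 by edgeR). It was -0.027 without apelin 2 and 0.015 without control 1, and 0.23 without apelin 1 and 0.24 without control 2.

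**Figure D2:**
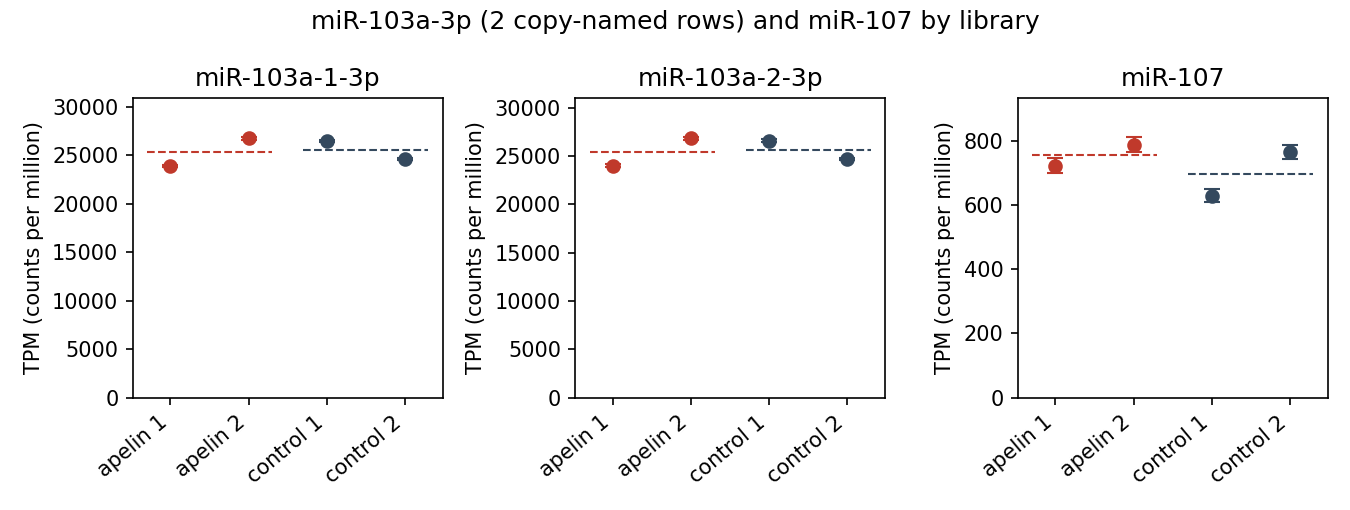
TPM of miR-103a-1-3p, miR-103a-2-3p and miR-107 in each library (apelin red, control dark), with 95% exact counting intervals as bars and group means as dashed lines; each panel has its own axis from 0. Apelin and control points overlap in all 3 panels, and control 1 is the lowest library for miR-107 at 628 TPM.

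The edgeR test called 0 of the 3 rows, against 0% of all 263 tested entries (213 with catalogue names), of which 15 had an unadjusted p under 0.05. DESeq2 called 20.2% of all tested entries (53 of 263) and none of the 3 rows, with adjusted p = 0.981 for both miR-103a-3p rows and 0.693 for miR-107. limma on log2(TPM + 1) called 4 entries and none of the 3 rows. Over the 18 alternative settings the adjusted p of miR-107 ran from 0.502 to 0.992, and that of miR-103a-2-3p was at least 0.597. These p-values miss the threshold and do not show that the groups were alike: the 95% interval for miR-107 reached from -0.36 to 0.64 on the log2 scale.

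The balance of the pair is free of library scaling, since both counts come from the same library. There were 33.3 counts of miR-103a-2-3p per count of miR-107 in apelin 1 and 34.1 in apelin 2, and 42.4 in control 1 and 32.4 in control 2. Control 1 stood above the other libraries, and control 2 stood below both apelin libraries. miR-107 made up 2.92% of the pair's counts in apelin 1 (95% Wilson interval 2.83% to 3.01%) and 2.85% in apelin 2 (2.77% to 2.93%). It made up 2.31% in control 1 (2.23% to 2.38%) and 3.00% in control 2 (2.91% to 3.09%). The interval of control 1 did not overlap those of the other libraries. The mean log2 ratio was 5.07 ± 0.024 with apelin and 5.21 ± 0.27 in controls (SD, n = 2 each). The difference of -0.14 was within the spread of the controls (two-sided exact permutation p = 1, with 0.333 as the smallest that 2 against 2 libraries can give). Without control 1 the difference was 0.058, and without apelin 2 it was -0.15. These ratios can depend on how reads without base 22 were assigned, as the sequences above show, and that was not tested.

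**Figure D3:**
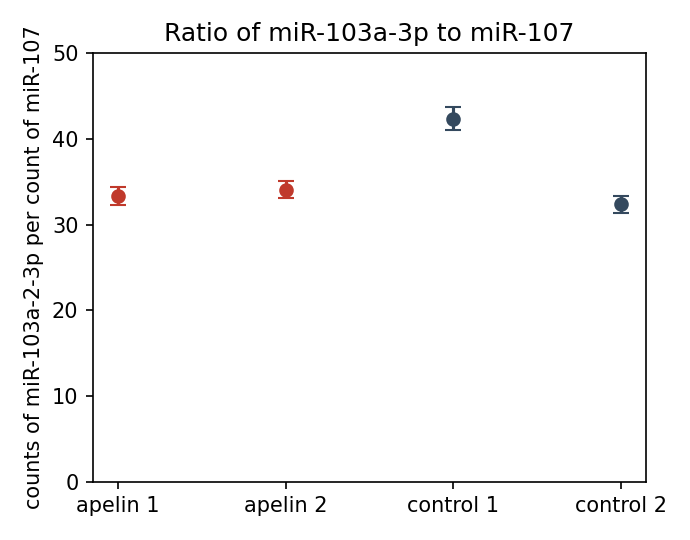
Counts of miR-103a-2-3p per count of miR-107 in each library (apelin red, control dark), with bars for the interval that follows from the 95% Wilson interval of the share of miR-107. Apelin 1, apelin 2 and control 2 sit between 32.4 and 34.1, and control 1 sits at 42.4.

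The ratio of miR-103a-3p to miR-107 was neither the steadiest nor the most variable among the 13 pairs of tested miRNAs that differ at 1 base. Its log2 ratio had an SD of 0.18 over the 4 libraries, the sixth lowest. The lowest SD, 0.092, belonged to let-7a-5p over let-7c-5p and the highest, 0.40, to miR-196b-5p over miR-196a-5p. By ratio of mean levels the pair, at 35.2, also ranked 6 of 13, where miR-29a-3p over miR-29c-3p had the largest ratio, 542, and miR-27a-3p over miR-27b-3p the smallest, 1.12. All 13 pairs may share reads to an unknown degree, and no test was made on them.

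miR-103a-3p and miR-107 together, each counted once, held 24729 TPM in apelin 1 and 27632 TPM in apelin 2, and 27248 TPM in control 1 and 25489 TPM in control 2. This was 2.47% and 2.76% of all counts with apelin, and 2.72% and 2.55% in controls. The apelin libraries lay on either side of both controls. The means were 26181 ± 2053 TPM with apelin and 26368 ± 1244 TPM in controls (SD, n = 2 each), a difference of -188 TPM (two-sided exact permutation p = 1, with 0.333 as the smallest possible). With TMM-scaled counts, on the same scale, the difference turned to 202. It was 1264 TPM without apelin 1 and 692 TPM without control 1, and -1640 TPM without apelin 2.

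In the order of mean level among catalogue entries, miR-103a-2-3p ranked 14 and miR-103a-1-3p 15 of 516, and miR-107 ranked 71. Rows of the same mature miRNA each hold a rank in this order. Next above miR-103a-3p stood miR-29a-3p, a repressor of collagens, at 22815 to 29958 TPM over the libraries, and a row of miR-92a-3p, which is made from more than 1 locus, at 22119 to 30390 TPM. Both ranges overlapped that of miR-103a-2-3p (24007 to 26845 TPM), so the order of these neighbours did not exceed their spread. Next below stood miR-24-1-3p (17119 to 22730 TPM) and the miR-24-3p row (16997 to 22575 TPM), which lay under every miR-103a-2-3p value. Both are rows of the same mature miRNA. Around miR-107 stood miR-98-5p and miR-584-5p above, and miR-652-3p and miR-4286 below, with means of 951, 846, 698 and 696 TPM. All 4 overlapped the range of miR-107 (628 to 788 TPM).

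miR-103a-3p, widely used as a reference in PCR assays of miRNAs, varied little here in comparison with most tested miRNAs. The SD of log2(TPM + 1) over the 4 libraries was 0.079 for miR-103a-2-3p, which ranked 18 from the lowest among the 207 tested catalogue entries above 0 in every library. Its highest library was 1.12 times its lowest. miR-107 had an SD of 0.14, which ranked 44 from the lowest, and a highest library 1.25 times its lowest. The median SD over the 207 entries was 0.21. Without apelin 2, a setting chosen after seeing the data, the SD was 0.077 for miR-103a-2-3p and 0.14 for miR-107, where the median was 0.15. miR-103a-2-3p then ranked 44 and miR-107 ranked 98 from the lowest, so their place near the steadiest miRNAs rested in part on apelin 2. This is a description of 4 libraries, with no test.

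**Figure D4:**
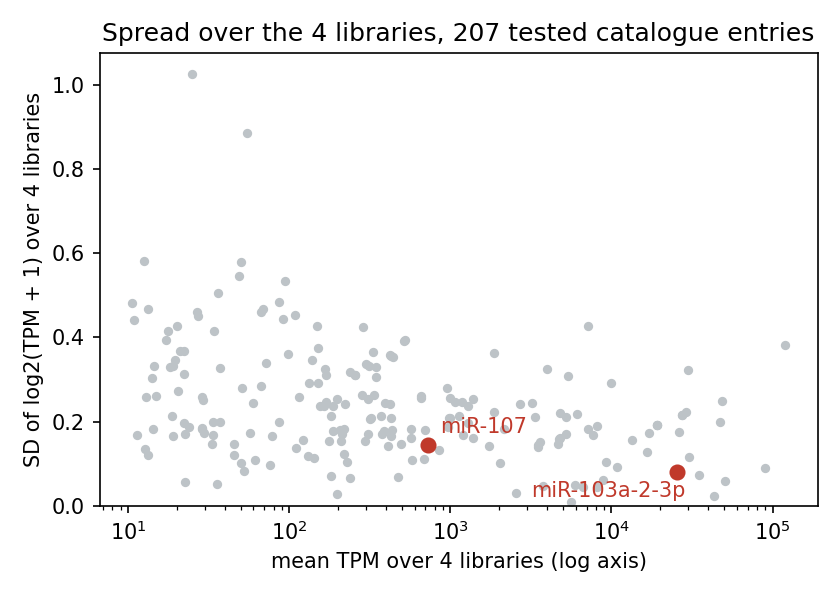
SD of log2(TPM + 1) over the 4 libraries against mean TPM (log axis) for the 207 tested catalogue entries above 0 in every library, with miR-103a-2-3p and miR-107 in red. miR-103a-2-3p sits at 0.079 and miR-107 at 0.14, both below the median of 0.21.

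The catalogue entries nearest to miR-103a-3p in pattern were taken as those with the smallest root-mean-square difference of centred log2(TPM + 1) over the 4 libraries, among 210 entries. They were miR-421 (0.031), miR-221-3p (0.055), miR-183-5p (0.063), miR-3934-5p (0.065) and miR-25-3p (0.068). miR-421 had 168 and 186 TPM with apelin, and 187 and 181 TPM in controls. Nearest to miR-107 were miR-30b-5p (0.051), miR-455-3p (0.051), miR-532-5p (0.056), miR-3065-5p (0.069) and miR-185-5p (0.074). miR-30b-5p had 2124 and 2468 TPM with apelin, and 1817 and 2188 TPM in controls, so control 1 was its lowest library too. The 2 sets had no miRNA in common. With 4 libraries these are descriptions only, and the entries share library and depth with the miRNAs they are set against.

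miR-103 and miR-107 belong to a group with miR-15 and miR-16 whose members carry AGCAGC near the 5′ end and repress cell cycle genes such as cyclins. The letters AGCAGC were searched on the given strand in bases 1 to 9, and were found in 13 of 2351 RefSeq mature sequences (0.553%). They were found in 9 tested entries here, the 3 rows of miR-103a-3p and miR-107 and 6 others. The others are shown with bases 2 to 8 in capitals, because their seed is set off by 1 base from that of miR-103 (RefSeq, GRCh38.p14).
miR-15a-5p: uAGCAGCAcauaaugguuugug
miR-15b-5p: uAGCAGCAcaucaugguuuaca
miR-16-5p: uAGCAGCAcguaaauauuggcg
miR-195-5p: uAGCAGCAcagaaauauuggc
miR-497-5p: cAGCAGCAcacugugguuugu
miR-503-5p: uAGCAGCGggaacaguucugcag
The first 5 shared the seed AGCAGCA, while miR-503-5p had AGCAGCG. miR-103a-3p and miR-107 were the only listed entries with the seed GCAGCAU among the 465 catalogue entries with a RefSeq sequence.

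Of 8 names listed for the rest of the group, 6 had rows, and miR-424-5p and miR-646 had none. In every library, miR-103a-3p and miR-107 together outweighed by level the 6 others that had rows. Those 6 summed to 13804 and 15113 TPM with apelin, and 13417 and 15540 TPM in controls. The ratio of the summed miR-103a-3p and miR-107 to the 6 others was 1.79 in apelin 1 and 1.83 in apelin 2. It was 2.03 in control 1 and 1.64 in control 2. Without apelin 2, the ratio was 1.79 in the apelin library, against a control mean of 1.84. The controls stood on either side of the apelin libraries (two-sided exact permutation p = 1, with 0.333 as the smallest possible).

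Of the 6 tested group members besides miR-103a-3p and miR-107, edgeR called 0, against 0% of all 263 tested entries. DESeq2 called 0 of the 6, against 20.2% of all tested entries (53 of 263). None of the 6 had an unadjusted edgeR p under 0.05, against 15 of all 263 tested entries. Their median log2 fold change was 0.14, against -0.018 over all 263 tested entries, and it was -0.062 without apelin 2. The levels did not overlap between groups for 3 of the 6, where 38.4% of all tested entries (101 of 263) did not.

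miR-15a-5p and miR-16-5p, from hairpins on chromosome 13 known for repressing BCL2, had positive values. miR-15a-5p stood at 67.5 and 102 TPM with apelin, and at 46.2 and 60.8 TPM in controls. Both apelin libraries lay above both controls, and the log2 fold change was 0.70 (SE 0.35, adjusted p = 0.627 by edgeR), or 0.26 without apelin 2. miR-16-5p, which also comes from a hairpin on chromosome 3, stood at 4601 and 5774 TPM with apelin, and at 3983 and 4826 TPM in controls. These overlapped, with a log2 fold change of 0.26 (SE 0.20, adjusted p = 0.664 by edgeR) that was -0.015 without apelin 2.

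miR-15b-5p, the most abundant of the 6 and the neighbour of that chromosome 3 hairpin, stood at 8780 and 8872 TPM with apelin, and at 9075 and 10251 TPM in controls. Both apelin libraries lay below both controls, and the log2 fold change was -0.11 (SE 0.080, adjusted p = 0.663 by edgeR), or -0.067 without control 2 and -0.22 without apelin 2. It had the narrowest 95% interval of the 6, from -0.37 to 0.15.

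miR-195-5p and miR-497-5p, neighbours on chromosome 17, were low. miR-195-5p stood at 32.9 and 33.0 TPM with apelin, and at 26.6 and 26.5 TPM in controls, from 150 to 188 counts a library. The groups did not overlap, and the log2 fold change was 0.33 (SE 0.20, adjusted p = 0.627 by edgeR), or 0.23 without apelin 2. miR-497-5p stood at 21.4 and 22.4 TPM with apelin, and at 22.3 and 23.7 TPM in controls. These overlapped, with a log2 fold change of -0.044 (SE 0.21, adjusted p = 0.931 by edgeR) that turned to 0.015 without apelin 1 and was -0.18 without apelin 2. miR-503-5p, a cyclin repressor from the X chromosome, stood at 301 and 309 TPM with apelin, and at 264 and 353 TPM in controls. The controls stood on either side of the apelin libraries, and its log2 fold change was 0.013 (SE 0.18, adjusted p = 0.976 by edgeR), or -0.11 without apelin 2 and -0.18 without control 1.

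**Figure D5:**
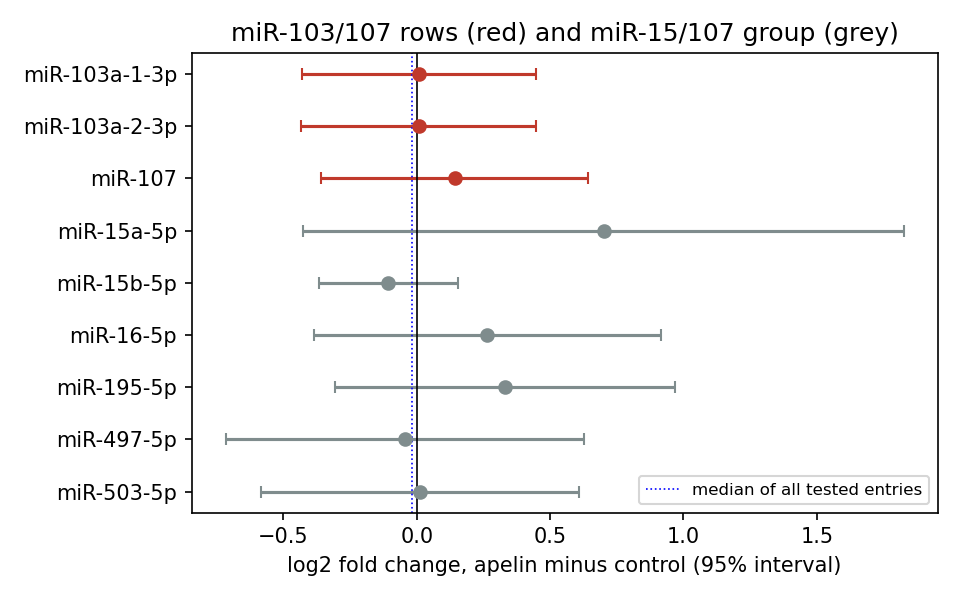
Log2 fold change of apelin over control with 95% intervals from edgeR for the miR-103a-3p and miR-107 rows (red) and 6 other members of their group with miR-15 (grey); the dotted line is the median over all 263 tested entries, -0.018. Every interval includes 0, and miR-15b-5p has the narrowest one.

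Other miRNAs from introns of coding genes had 22 tested rows from 34 names. edgeR called 0 of them, against 0% of all 263 tested entries, and the median log2 fold change was 0.050, against -0.018 over all tested entries. Without apelin 2 the list's median was -0.11. By direction, 13 rows had positive and 9 negative values. The most abundant was miR-15b-5p, and the next were miR-26a-5p, miR-30c-5p and miR-93-5p. miR-26a-5p, from introns of the CTDSP phosphatase genes, stood at 6380 and 7398 TPM with apelin, and at 6415 and 8299 TPM in controls, which overlapped. Its edgeR log2 fold change was -0.066, and -0.28 without apelin 2. miR-93-5p, from an intron of MCM7, stood at 5195 and 4357 TPM with apelin, and at 5653 and 5538 TPM in controls, and the groups did not overlap. Its edgeR log2 fold change was -0.21, and -0.19 without apelin 2. DESeq2 called 1 of the 22 rows, against 20.2% of all tested entries. It was miR-128-1-3p, with a log2 fold change of -0.26 (SE 0.099, adjusted p = 0.0499 by DESeq2), where edgeR gave -0.25 (SE 0.12, adjusted p = 0.627). The other row of the same mature miRNA, miR-128-2-3p, was also in the list and was not called. It stood at 1050 and 1120 TPM with apelin, and at 1329 and 1308 TPM in controls.

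miRNAs tied to insulin signalling or lipid metabolism, the processes that miR-103 and miR-107 are best known for in liver and fat, had 9 tested rows from 23 names. edgeR called 0 of them, against 0% of all tested entries, with 1, miR-29a-3p, at an unadjusted p under 0.05, against 15 of all 263. Of the 9 rows, 7 had positive and 2 negative values. Their median log2 fold change was 0.23, against -0.018 over all tested entries, and it was 0.088 without apelin 2 and 0.36 without apelin 1. miR-29a-3p, the most abundant, stood at 27892 and 29958 TPM with apelin, and at 22815 and 24668 TPM in controls, and the groups did not overlap. Its edgeR log2 fold change was 0.31, and 0.15 without apelin 2. miR-27a-3p, a repressor of adipocyte factors, stood at 5277 and 6646 TPM with apelin, and at 3960 and 5456 TPM in controls, which overlapped. Its edgeR log2 fold change was 0.37, and 0.088 without apelin 2. DESeq2 called 1 of the 9 rows, against 20.2% of all tested entries. It was miR-29c-3p (log2 fold change 0.92, SE 0.36, adjusted p = 0.0499 by DESeq2), where edgeR gave 0.92 (SE 0.34, adjusted p = 0.627).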

How the data were processed

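Small RNA was counted in 2 apelin and 2 control libraries of PC-3 cells. Library products of 140 to 160 bp were cut from a gel, per the labels' protocols. The submitters' processing notes name Trimmomatic 0.30 and DESeq2. For the aligner, catalogue and genome build the sources used here give no name. The authors deposited raw read counts, whole numbers whose totals differ between libraries. In the deposited TPM columns each count is scaled to a total of 1000000, to within 0.151.

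From the counts, entries with a mean of at least 10 TPM were tested with edgeR's quasi-likelihood test (TMM scaling, two-sided, Benjamini-Hochberg over all 263 tested entries, threshold 0.05), apelin over control. Each SE is the log2 fold change divided by the root of the F statistic, without sign. Ratios and sums used exact permutation tests. The design counted rows with the same counts once. The miR-103a-3p rows differ, so a tolerance of 1% was set after seeing the data. The members and the 3 lists were chosen with earlier results of these data known. Named miRNAs were all members, the miR-15 and miR-107 group, up to 4 abundant rows of each other list, 5 nearest in pattern and 2 neighbours each side in level. There were 18 alternative settings for the fit, 17 planned and 1 added after seeing the data. Sequences came from RefSeq. Tool versions were edgeR 4.0.16, DESeq2 1.42.0 and limma 3.58.1 under R 4.3.3, and scipy 1.17.1, numpy 2.4.6, pandas 2.3.3 and matplotlib 3.10.9 under Python 3.11.15.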

Additional observations from a re-analysis of the deposited data

How the results depend on the processing

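The count of called entries, 0 in edgeR, was 53 with DESeq2, 4 with limma on log2(TPM + 1) or log2(TPM + 10), 5 on log2(TPM + 0.1), 4 at a minimum of 100 TPM, 52 with no filter and 0 to 19 with a library left out (11 without control 1 and 19 without control 2). None of the 3 rows of miR-103a-3p and miR-107 was called in any setting. The log2 fold change of miR-103a-2-3p turned negative with library totals (-0.014), limma at a pseudocount of 1 (-0.015), 0.1 (-0.015) or 10 (-0.015), catalogue names alone (-0.0028), those above 0 in all libraries (-0.0028) and same counts kept once (-0.0050), and ran from -0.18 to 0.11 with a library left out. For miR-103a-1-3p these were -0.013, -0.014, -0.014, -0.014, -0.0020, -0.0020 and -0.0042, and -0.18 to 0.11. That of miR-107 kept its direction in all settings with every library kept, from 0.12 to 0.16, and ran from -0.027 to 0.24 with a library left out. The log2 ratio difference ran from -0.33 to 0.058 and the summed level difference from -1640 to 1264 TPM with a library left out. The summed difference was 202 with TMM scaling. miR-503-5p turned negative with library totals (-0.013), catalogue names alone (-0.00023), those above 0 in all libraries (-0.00018) and same counts kept once (-0.0013). With a library left out miR-503-5p ran from -0.18 to 0.19, miR-16-5p from -0.015 to 0.44 and miR-497-5p from -0.18 to 0.015. DESeq2 called 1 member each of the intronic and the insulin and lipid lists. The cause was not tested. With a replicate block edgeR called 0 entries, and the log2 fold changes were 0.0050 for miR-103a-2-3p, 0.0058 for miR-103a-1-3p and 0.14 for miR-107. For the log2 ratio and the summed level, the mean apelin-minus-control difference within replicate numbers, -0.14 and -188 TPM, equals the unpaired one by construction. Replicate numbers pair no libraries in the labels, and deviations of libraries with the same number had a correlation of 0.318 over 207 miRNAs. Depth limits miR-107 to 3780 to 4490 counts a library, and 2 libraries a group leave wide intervals.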
